A study of Mus musculus with 8 samples.

Results

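The voltage-gated calcium and sodium channel subunits are described here in the hippocampus of mice that lack wolframin, the ER membrane glycoprotein encoded by Wfs1. Members were the entries of the deposited table whose symbol starts with Cacna, Cacnb or Cacng, or is Scn followed by digits and a or b, which gave 39 of 24078 entries. All 39 passed the filter on low counts, and 37 are described here, 18 genes for pore-forming subunits and 19 for auxiliary subunits, over which every count below runs. The table lists the sodium channel gene Scn2a under its older symbol Scn2a1, which the wording of that rule leaves out, so it is described beside the members and is not in their counts. The 4 homozygous mice (replicates 15, 16, 17 and 18) carried the targeted allele Wfs1tm1Koks on both chromosomes, and the 4 wild-type mice (replicates 7, 8, 9 and 10) are listed under the same strain name. The labels give no age, sex or litter, the allele is not restricted to a cell type by any label, and each library came from a different animal. Total hippocampal RNA depleted of ribosomal RNA was counted per gene, with library totals of 3250949 to 6747411 counts. Wfs1 transcripts averaged 14.8 ± 2.61 CPM (read counts scaled by library size) in homozygous libraries, against 52.0 ± 7.49 CPM in wild-type libraries (SD, n = 4 each), with no overlap. The counts are per gene, so which exons were read is not known.

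Voltage-gated calcium and sodium channels open when the membrane depolarises. The pore and its voltage sensor are formed by a single large polypeptide, encoded by the Cacna1 and Scn-a genes, while smaller auxiliary subunits set how many channels reach the surface and how they gate. Calcium pores associate with a cytoplasmic beta subunit (Cacnb genes) and an extracellular alpha-2-delta subunit (Cacna2d genes), and sodium pores with single-span beta subunits of the immunoglobulin fold (Scn-b genes). Most Cacng genes encode TARPs, transmembrane proteins that accompany AMPA-type glutamate receptors rather than calcium channels. In hippocampal pyramidal cells sodium channels start the action potential at the axon initial segment and calcium channels trigger transmitter release and dendritic calcium entry.

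Genes for auxiliary subunits were mostly the ones that fell. At an adjusted p under 0.05 in edgeR's quasi-likelihood test (Benjamini-Hochberg over all 20478 genes tested), 9 of 19 auxiliary genes were lower in homozygous hippocampus, 0 were higher and 10 passed in neither direction. The 8 Cacng genes, most of which encode TARPs, are counted as auxiliary here and gave 3 of those 9. Of 18 pore genes 1 was lower, 4 were higher and 13 passed in neither direction. Over all genes tested 20.4% were lower and 20.7% higher by the same rule. The median log2 fold change (homozygous over wild-type) was -0.39 for auxiliary genes and -0.04 for pore genes, against 0.05 for all genes tested. Values of the 4 homozygous libraries lay wholly below those of the 4 wild-type libraries for 6 auxiliary genes and 1 pore gene, and wholly above for 0 and 4, against 18.8% of all genes below and 18.8% above. With library totals as the only scaling, which moved the median of all genes from 0.05 to 0.25, 3 auxiliary genes were lower and 2 higher, and 0 pore genes were lower and 5 higher, where 11.8% of all genes were lower and 32.4% higher. With DESeq2-type size factors 11 of the 37 were lower and 4 higher, against 21.2% and 19.8% of all genes. The homozygous and wild-type RNA came from whole tissue, where fewer cells of a type and less RNA per cell cannot be told apart.

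**Figure D1:**
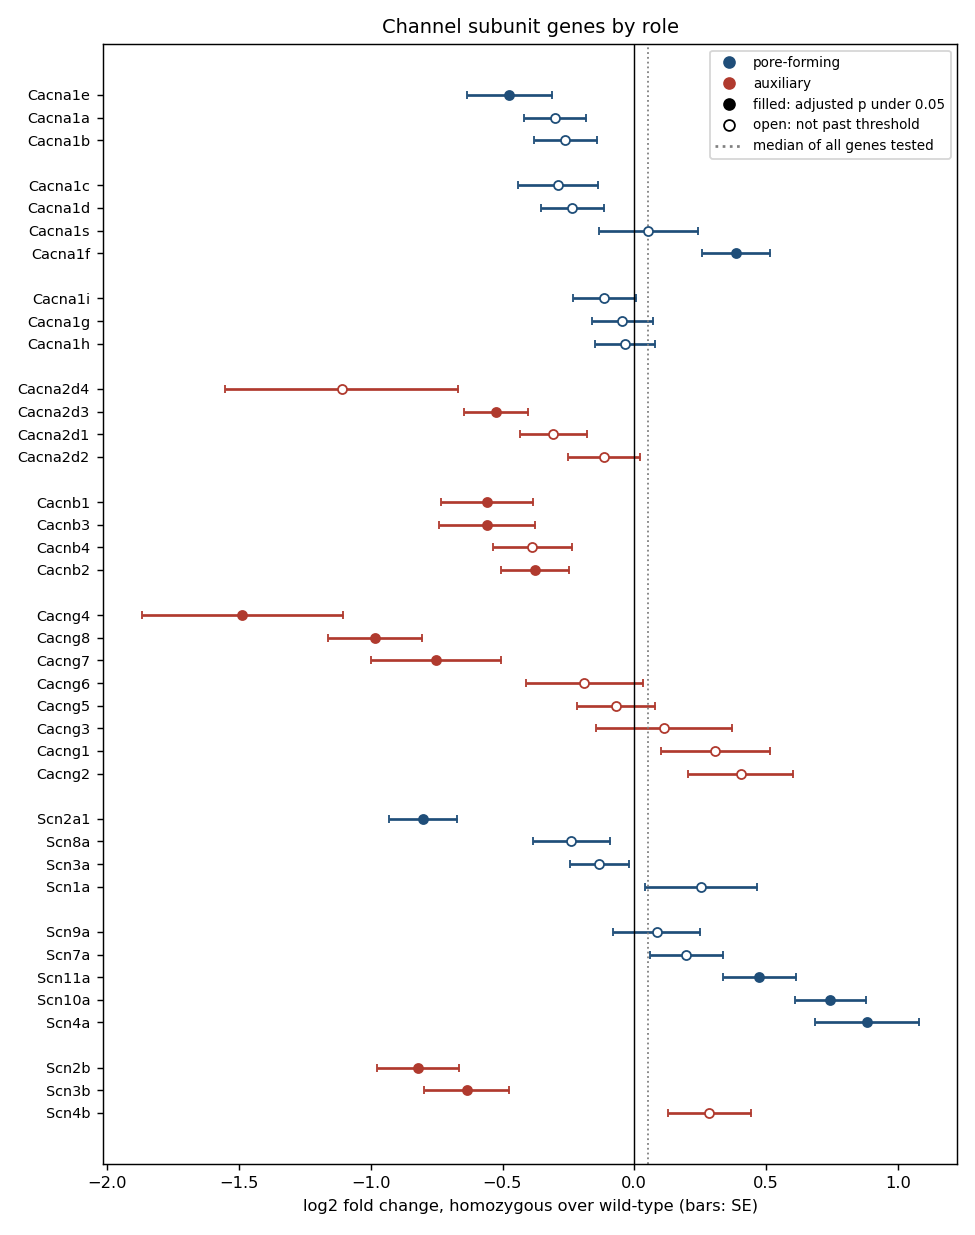
Log2 fold change of homozygous over wild-type (x axis) for each of the 37 genes and Scn2a1 (rows, grouped by role), with bars for the SE from 4 libraries per genotype. Filled symbols passed an adjusted p of 0.05 in edgeR. Auxiliary genes (red) run from -1.49 to 0.40 and pore genes of the rule (blue) from -0.47 to 0.88.

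Among the sodium channel beta subunit genes described, Scn2b and Scn3b fell and Scn4b did not pass. Scn2b, which binds the pore through a disulphide bond, had 135, 116, 138 and 126 CPM in homozygous replicates 15 to 18 and 232, 172, 283 and 223 CPM in wild-type replicates 7 to 10. The log2 fold change was -0.82 (SE 0.16, adjusted p 0.00222 in edgeR). Scn3b, whose product attaches to the pore non-covalently, had 153, 162, 158 and 137 CPM in homozygous libraries and 277, 178, 278 and 213 CPM in wild-type libraries, a log2 fold change of -0.64 (SE 0.16, adjusted p 0.00926). Neither gene's genotypes overlapped, and wild-type replicate 8 was the lowest wild-type library for both. Scn4b, known for its part in resurgent current, had 44.5, 32.8, 57.0 and 46.7 CPM in homozygous libraries and 40.9, 37.0, 36.7 and 33.9 CPM in wild-type libraries. The ranges overlapped and it did not pass (log2 fold change 0.29, SE 0.16, adjusted p 0.169), but passed as higher without homozygous replicate 16 (0.40, adjusted p 0.0332) and with library totals as the scaling (0.49, adjusted p 0.0271). Scn2b and Scn4b lie side by side on the plus strand of chromosome 9 (mm10, positions 45117782 to 45130070 and 45138395 to 45154152).

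Scn2b and Scn3b were the densest of the 37 genes in both genotypes. Per kilobase of annotated exon, Scn2b averaged 27.7 CPM in homozygous and 48.9 CPM in wild-type libraries, and Scn3b averaged 27.9 CPM in homozygous and 43.4 CPM in wild-type libraries. When a trend on transcript abundance was removed from each library, Scn2b was -0.48 (adjusted p 0.0225 in edgeR) and Scn3b no longer passed (-0.26, adjusted p 0.165). When a trend on read density (counts over exon length) was removed instead, Scn2b passed (-0.40, adjusted p 0.0458), while Scn3b was -0.22 (adjusted p 0.26). Scn3b also missed the threshold with library totals as the scaling (-0.43, adjusted p 0.0519).

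**Figure D2:**
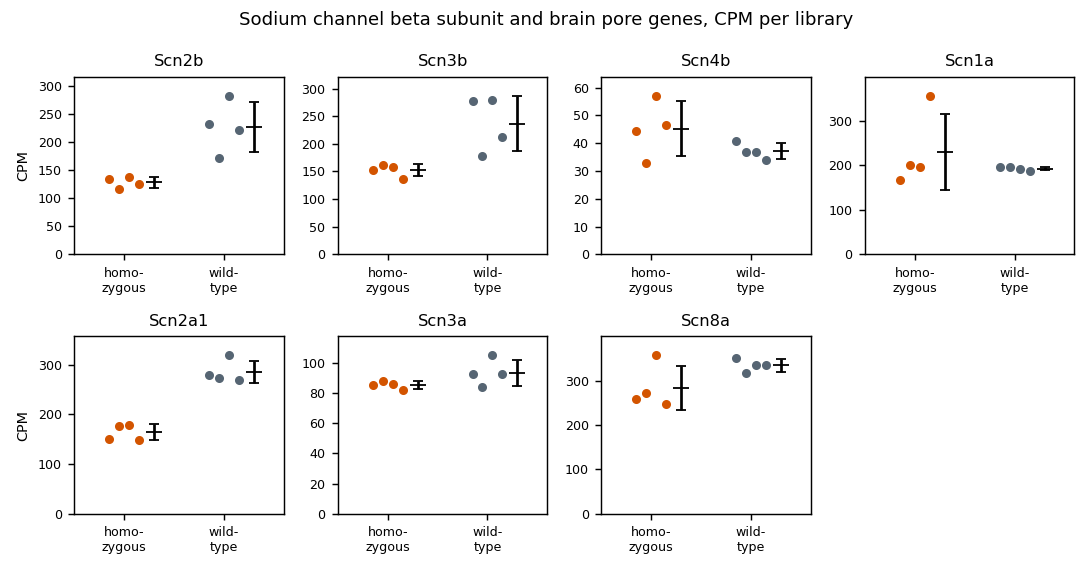
CPM per library (y axis, from 0) of 3 sodium channel beta subunit genes (Scn2b, Scn3b and Scn4b) and the 4 brain sodium channel pore genes. Orange points are homozygous and grey points wild-type libraries, and the black bar gives mean and SD (n = 4 each). Scn2b, Scn3b and Scn2a1 show no overlap between genotypes, whereas Scn1a in homozygous replicate 18 stands at 356 CPM.

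The pore genes of brain sodium channels behaved unlike one another. Scn2a1 encodes the pore that predominates in unmyelinated axons and in the early initial segment. It had 151, 177, 179 and 149 CPM in homozygous replicates 15 to 18, against 280, 273, 318 and 269.9 CPM in wild-type replicates 7 to 10, with no overlap. The log2 fold change was -0.80 (SE 0.13, adjusted p 0.000881 in edgeR), and the gene stayed past the threshold under all 18 alternatives, at -0.40 with the abundance trend and -0.56 with the density trend removed. Among these alternatives, the looser adjusted p of 0.1 reuses the same fit and could not end a call. Scn8a, the pore of the mature initial segment and nodes and the most abundant member in CPM in both genotypes, had 258, 273, 357 and 246 CPM in homozygous and 351, 317, 335 and 335 CPM in wild-type libraries. It did not pass (-0.24, SE 0.15, adjusted p 0.211), and without homozygous replicate 17 it was -0.38 (adjusted p 0.0443). Scn3a, prominent in the embryonic brain, had 81.9 to 88.0 CPM in homozygous and 83.8 to 105 CPM in wild-type libraries and did not pass (-0.13, SE 0.11, adjusted p 0.363).

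Scn1a, the pore on which fast-spiking inhibitory neurons depend, had 166, 201, 197 and 356 CPM in homozygous replicates 15 to 18, against 196, 195, 192 and 188 CPM in wild-type replicates 7 to 10. Wild-type libraries had an SD of 3.81 CPM, while homozygous replicate 18 stood far above the other homozygous libraries. The log2 fold change was 0.25 (SE 0.21, adjusted p 0.354 in edgeR), and without that library it was -0.04 (adjusted p 0.808). With the abundance trend removed Scn1a passed as higher (0.63, adjusted p 0.0329). Scn3a, Scn2a, Scn1a, Scn9a and Scn7a lie in this order on chromosome 2 (mm10, from 65457118 to 66784914), and of these 5 genes only Scn2a1 passed with TMM scaling, all libraries and no trend removed. Rest, a repressor that is known to act on sodium channel genes, was counted at 570, 740, 527 and 848 CPM in homozygous replicates 15 to 18 and at 27.2, 23.7, 27.8 and 26.3 CPM in wild-type replicates 7 to 10. Its part in the values of Scn2a1 and the beta subunit genes was not tested.

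Of 5 pore genes best known from skeletal muscle, glia and sensory neurons, all low here, 3 rose, where 20.7% of all genes rose. Scn4a, the skeletal muscle pore, had 35.1, 61.0, 34.4 and 34.6 CPM in homozygous replicates 15 to 18 and 23.1, 19.3, 21.5 and 25.0 CPM in wild-type replicates 7 to 10, with no overlap. Its log2 fold change was 0.88 (SE 0.20, adjusted p 0.00507 in edgeR) and 0.63 (adjusted p 0.00409) without homozygous replicate 16. Scn10a, a tetrodotoxin-resistant pore of nociceptors, had 30.2, 23.5, 28.3 and 25.2 CPM in homozygous and 16.3, 16.3, 16.5 and 15.2 CPM in wild-type libraries, again with no overlap (0.74, SE 0.13, adjusted p 0.00158). Scn11a, its neighbour on chromosome 9 and likewise a nociceptor pore, had 27.4, 30.2, 24.9 and 29.1 CPM in homozygous and 16.7 to 21.7 CPM in the 4 wild-type libraries, with no overlap. It passed (0.47, SE 0.14, adjusted p 0.0171), but not without wild-type replicate 7 (0.39, adjusted p 0.0584) or with the density trend removed (0.30, adjusted p 0.0998). The atypical, glial Scn7a (0.20, adjusted p 0.264) and the peripheral Scn9a (0.09, adjusted p 0.699) did not pass, though Scn7a did with library totals as the scaling (0.40, adjusted p 0.0316).

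These low levels need a measure of what the assay counts for genes with little known role in brain. For this, 138 genes of the Krt, Tas2r, Cyp2 and Mrgpr type were taken (keratins, taste receptors, liver enzymes and sensory receptors). Only genes that passed the filter on low counts were included, so the sparsest genes of these families are left out of the range. The 10th to 90th percentile was 2.198 to 7.98 CPM per kilobase of exon in homozygous and 1.70 to 7.33 in wild-type libraries. Of those 138 genes 32 were higher and 7 lower, with a median log2 fold change of 0.38. Counts in this paragraph are read against the 20.7% higher and 20.4% lower of all genes. All 4 pore genes that rose lay at or under the 90th percentile in both genotypes: Scn4a averaged 5.87 CPM per kilobase in homozygous and 3.16 in wild-type libraries, Scn10a 3.37 and 2.02, Scn11a 4.70 and 3.37, and Cacna1f 2.92 and 2.25. In all, 19 of the 37 (12 pore and 7 auxiliary) were at or under that level in both genotypes. The 12 pore genes include the N-type Cacna1b, the neuronal L-type Cacna1c and Cacna1d and the T-type Cacna1g and Cacna1i. Cacna1c averaged 91.1 CPM in homozygous and 112 CPM in wild-type libraries, over 21191 exonic bases. A place under that level thus does not mean that a gene lacks a role in neurons. Among the 19, 2 of the 7 auxiliary genes (Cacnb2 and Cacng7) were lower and 0 higher, against 0 lower and 4 higher of the 12 pore genes. Of the remaining genes, 7 of 12 auxiliary and 1 of 6 pore genes were lower, and 0 were higher. Among them, Cacna1e, Cacnb1, Cacng4, Cacna2d4 and Scn3a were at or under the 90th percentile in homozygous libraries only. Cacng2 was so in wild-type libraries only. The place of these genes depends in part on the difference between genotypes, so the counts do not separate level from change. The part of expression level in the difference between pore and auxiliary genes was not tested. Among skeletal and cardiac muscle markers 1 of 11 tested rose and 0 fell, the summed list reaching 184 to 222 CPM in homozygous and 163 to 208 CPM in wild-type libraries. The fast muscle markers Tnni2, Tnnc2 and the ventricular Myl2 were too low to be tested. Sensory neuron markers rose in 3 of 10 and fell in 0, with a summed level of 342 to 487 CPM in homozygous and 274 to 316 CPM in wild-type libraries. Those that rose were Runx1 (1.51, adjusted p 0.000418), Mrgprd (1.23, adjusted p 0.000201) and Prdm12 (0.63, adjusted p 0.0121), and the other 7, among them Trpv1 (-0.06) and Calca (0.45), did not pass. Mrgprd is also one of the 138 genes above, so the low-level families and the sensory neuron list share that gene. The part of the muscle and sensory neuron markers in the values of Scn4a, Scn10a and Scn11a was not tested.

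Of the 10 calcium channel pore genes 1 fell, 1 rose and 8 did not pass, where 20.4% of all genes fell and 20.7% rose. Of the high-voltage-activated presynaptic types, Cacna1e, the R-type pore of dendrites, spines and some terminals, had 235, 189.9, 176 and 189.9 CPM in homozygous replicates 15 to 18 and 303, 221, 326 and 248 CPM in wild-type replicates 7 to 10. Homozygous replicate 15 lay above wild-type replicate 8, so the ranges overlapped. The log2 fold change was -0.47 (SE 0.16, adjusted p 0.0338 in edgeR). That call ended without homozygous replicate 16 (-0.46, adjusted p 0.061), 17 (-0.43, adjusted p 0.0721) or 18 (-0.46, adjusted p 0.0612) and without wild-type replicate 7 (-0.43, adjusted p 0.101) or 9 (-0.38, adjusted p 0.114). It also ended with library totals as the scaling (-0.27, adjusted p 0.21) and with the abundance trend removed (-0.05, adjusted p 0.806).

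Cacna1a, the P/Q-type pore that drives release at most central synapses, had 97.3, 88.0, 96.6 and 96.0 CPM in homozygous libraries, all below the 123, 110.2, 129 and 103 CPM of wild-type libraries, but missed the threshold (-0.30, SE 0.12, adjusted p 0.0595 in edgeR). DESeq2 (-0.32, adjusted p 0.04) and limma-voom (adjusted p 0.0401) called it. Cacna1b, the N-type pore, averaged 50.1 ± 5.52 CPM in homozygous and 60.3 ± 4.27 CPM in wild-type libraries (SD, n = 4 each) and did not pass (-0.26, adjusted p 0.0989). Neither did the neuronal L-type pores Cacna1c (-0.29, adjusted p 0.145) and Cacna1d (-0.24, adjusted p 0.133), which couple depolarisation to gene transcription. With the density trend removed, Cacna1b, Cacna1c and Cacna1d did pass as lower (-0.41, -0.45 and -0.39, adjusted p at most 0.0384).

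Cacna1f, the L-type pore of photoreceptor synapses, rose from a low level: 29.0, 26.1, 23.7 and 27.3 CPM in homozygous libraries against 18.2, 22.0, 19.9 and 21.5 CPM in wild-type libraries, with no overlap (0.39, SE 0.13, adjusted p 0.0334 in edgeR). It did not pass without homozygous replicate 15 (0.34) or 18 (0.37), without wild-type replicate 7 (0.33), 9 (0.37) or 10 (0.41), in DESeq2 (0.37, adjusted p 0.0653), or with the abundance (0.31) or density trend (0.20) removed. The skeletal muscle pore Cacna1s did not pass (0.05, adjusted p 0.838), and 1309 of its 6550 annotated exonic bases lie opposite the exons of another gene. The T-type pores Cacna1g, Cacna1h and Cacna1i, which open near rest and support bursting, did not pass either, at -0.05, -0.03 and -0.11 with SE of 0.11 to 0.12. Cacna1h had 84.8 to 98.0 CPM in homozygous and 83.5 to 101 CPM in wild-type libraries, so that the ranges overlapped.

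The alpha-2-delta subunits, extracellular proteins that bring calcium channels to the membrane and bind the gabapentinoid drugs in some members, included 1 gene that fell. By the same rule 20.4% of all genes fell. Cacna2d3 had 84.6, 76.4, 72.6 and 72.5 CPM in homozygous replicates 15 to 18, against 109, 94.9, 116 and 121 CPM in wild-type replicates 7 to 10, with no overlap. Its log2 fold change was -0.53 (SE 0.12, adjusted p 0.00578 in edgeR), and among all 18 alternatives it missed the threshold with library totals as the scaling (-0.33, adjusted p 0.07). Cacna2d1, the most abundant of the 4, had 183, 232, 181 and 197 CPM in homozygous libraries and 241, 237, 257 and 246 CPM in wild-type libraries. No homozygous value reached a wild-type value, yet the test was not passed (-0.31, SE 0.13, adjusted p 0.072), and without homozygous replicate 16 it was (-0.40, adjusted p 0.0319). DESeq2 (-0.33, adjusted p 0.0285) and limma-voom (-0.35, adjusted p 0.0163) called it. Cacna2d2 did not pass (-0.12, adjusted p 0.522).

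Cacna2d4, mainly known from the retina, turned on a single library. It had 50.5, 42.4, 34.1 and 34.3 CPM in homozygous replicates 15 to 18, against 60.9, 204, 42.2 and 47.8 CPM in wild-type replicates 7 to 10. The ranges overlapped, and wild-type replicate 8 was more than any other library. The log2 fold change was -1.11 (SE 0.44, adjusted p 0.0628 in edgeR) with all libraries and -0.33 (adjusted p 0.175) without wild-type replicate 8, while leaving out wild-type replicate 9 (-1.35, adjusted p 0.0347) or 10 (-1.32, adjusted p 0.0411), or removing the density trend (-1.25, adjusted p 0.0447), took it past the threshold.

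Calcium channel beta subunits, which bind the pore's first cytoplasmic loop and promote its surface expression, had 3 of 4 genes lower. Over all genes tested the share was 20.4%. Cacnb3, the neuronal and smooth muscle form, had 89.5, 74.0, 52.0 and 58.1 CPM in homozygous replicates 15 to 18 and 112, 79.3, 113 and 99.9 CPM in wild-type replicates 7 to 10, with overlap at homozygous replicate 15 (-0.56, SE 0.18, adjusted p 0.0291 in edgeR). Cacnb1, the skeletal muscle and brain form, had 26.5, 19.5, 25.4 and 19.4 CPM in homozygous and 36.9, 27.8, 41.1 and 28.0 CPM in wild-type libraries, with no overlap (-0.56, SE 0.17, adjusted p 0.0239). Cacnb2, the cardiac form, had 38.3, 46.2, 37.6 and 35.2 CPM in homozygous and 51.0, 58.7, 49.7 and 45.4 CPM in wild-type libraries, with overlap at homozygous replicate 16 (-0.38, SE 0.13, adjusted p 0.0354).

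These 3 calls were close to the threshold. Cacnb3 lost its call without homozygous replicate 17 (-0.46) or 18 (-0.50) and without wild-type replicate 7 (-0.51), 9 (-0.50) or 10 (-0.57). Cacnb2 lost it without homozygous replicate 15 (-0.36), 17 (-0.36) or 18 (-0.34) and without wild-type replicate 7 (-0.38), 8 (-0.33) or 9 (-0.39). Cacnb1 lost it without homozygous replicate 18 (-0.50) and without wild-type replicate 7 (-0.52) or 9 (-0.44). None of the 3 passed with library totals as the scaling (-0.35, -0.17 and -0.35 for Cacnb3, Cacnb2 and Cacnb1), Cacnb3 and Cacnb2 did not with the abundance trend removed (-0.40 and -0.32), and Cacnb3 did not with the density trend removed (-0.26). Cacnb4, the most abundant beta gene and the one mutated in the lethargic mouse, had 148, 152, 145 and 215 CPM in homozygous and 219, 201, 221 and 222 CPM in wild-type libraries. It missed the threshold (-0.39, SE 0.15, adjusted p 0.0561 in edgeR) but passed without homozygous replicate 18 (-0.55, adjusted p 0.00651). It also passed with DESeq2-type size factors (adjusted p 0.0481), robust dispersion (adjusted p 0.0428), DESeq2 (adjusted p 0.0292) and limma-voom (adjusted p 0.0144). Of its 8963 annotated exonic bases 1433 lie opposite exons of A430018G15Rik, and the strand setting of the counting is unknown here.

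**Figure D3:**
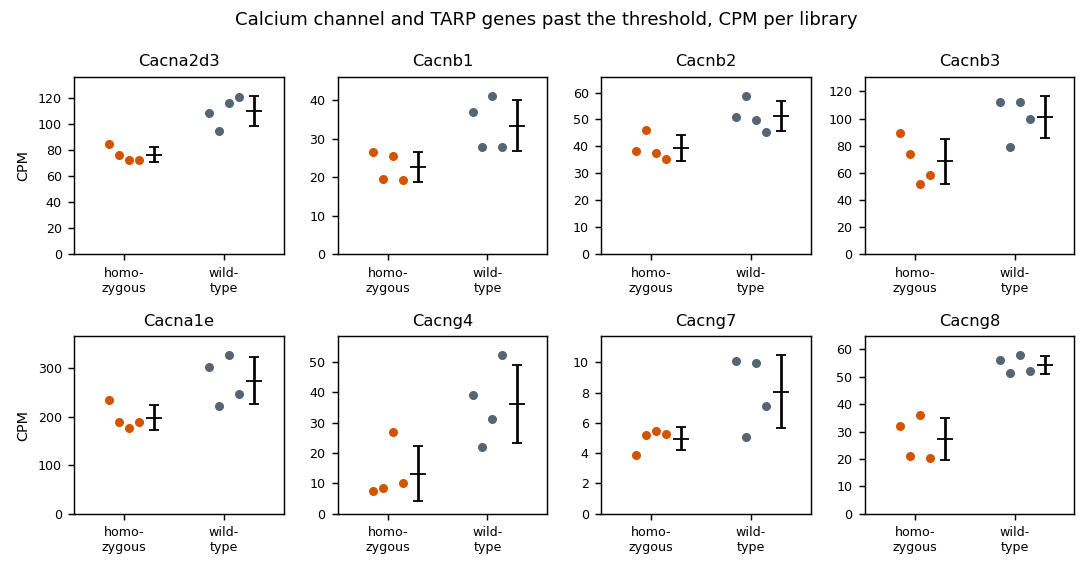
CPM per library (y axis, from 0) of the 8 calcium channel and TARP genes that were lower at an adjusted p of 0.05. Orange points are homozygous and grey points wild-type libraries, with mean and SD as black bars (n = 4 each). Cacna2d3, Cacnb1 and Cacng8 show no overlap between genotypes, and homozygous replicate 17 of Cacng4 (26.9 CPM) lies above wild-type replicate 8 (22.0 CPM).

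Among the 10 genes that fell past the threshold, the TARP genes Cacng4 and Cacng8 had the lowest log2 fold changes. Cacng8, the TARP that is enriched in hippocampus and needed there for extrasynaptic AMPA receptors and long-term potentiation, had 32.0, 21.2, 35.9 and 20.2 CPM in homozygous replicates 15 to 18, against 56.1, 51.2, 57.8 and 52.0 CPM in wild-type replicates 7 to 10. The genotypes were well apart, and the log2 fold change was -0.98 (SE 0.18, adjusted p 0.00168 in edgeR). It passed under all 18 alternatives, between -1.14 and -0.76. Cacng4, prominent in the developing brain and in glial cells, had 7.59, 8.42, 26.9 and 9.98 CPM in homozygous and 39.2, 22.0, 31.3 and 52.2 CPM in wild-type libraries (-1.49, SE 0.38, adjusted p 0.00991). Homozygous replicate 17 stood apart from the other homozygous libraries, and without it the log2 fold change was -2.09 (adjusted p 0.000493).

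Cacng7, which acts on AMPA receptors of cerebellar and other neurons, was sparse, with 77 counts summed over homozygous and 158 over wild-type libraries. It had 3.89, 5.23, 5.49 and 5.28 CPM in homozygous and 10.1, 5.09, 9.95 and 7.15 CPM in wild-type libraries (-0.75, SE 0.25, adjusted p 0.03 in edgeR). The ranges overlapped at wild-type replicate 8, and the call ended without homozygous replicate 15 (-0.62), without wild-type replicate 7 (-0.65) or 9 (-0.63), and with library totals as the scaling (-0.55). Cacng2, the stargazin gene and the founding TARP, had 39.9, 36.3, 60.7 and 49.0 CPM in homozygous and 29.1, 47.8, 28.9 and 35.8 CPM in wild-type libraries. It did not pass (0.40, SE 0.20, adjusted p 0.125), but passed as higher without wild-type replicate 8 (0.55, adjusted p 0.0367), with library totals (0.60, adjusted p 0.0249) and in limma-voom (0.48, adjusted p 0.0424). Cacng3 (0.11), Cacng5 (-0.07), Cacng6 (-0.19) and the muscle calcium channel subunit gene Cacng1 (0.31) did not pass, each with at most 373 counts summed over either genotype. Cacng7, Cacng8 and Cacng6 adjoin each other on chromosome 7 (mm10, 3332955 to 3435667), and Cacng1, Cacng4 and Cacng5 on chromosome 11 (107703218 to 107915055), so that each cluster held genes that fell and genes that did not pass.

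Promoter windows are shown for 2 auxiliary genes that fell, Scn2b and Cacng7, and for Scn10a, which rose, because their fold changes point in opposite directions. Each window is RefSeq sequence on build GRCm38.p6 from 250 bases before to 50 bases after an annotated start, 5′ to 3′ on the gene's strand, with CG dinucleotides in capitals.
Scn2b (chr9:45117626-45117925, plus strand): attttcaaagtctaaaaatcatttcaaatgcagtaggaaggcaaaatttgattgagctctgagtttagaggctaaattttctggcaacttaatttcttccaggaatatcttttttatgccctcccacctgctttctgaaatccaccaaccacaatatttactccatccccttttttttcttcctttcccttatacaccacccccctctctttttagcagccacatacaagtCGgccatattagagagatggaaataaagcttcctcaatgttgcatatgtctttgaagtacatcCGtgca
Cacng7 (chr7:3332575-3332874, plus strand): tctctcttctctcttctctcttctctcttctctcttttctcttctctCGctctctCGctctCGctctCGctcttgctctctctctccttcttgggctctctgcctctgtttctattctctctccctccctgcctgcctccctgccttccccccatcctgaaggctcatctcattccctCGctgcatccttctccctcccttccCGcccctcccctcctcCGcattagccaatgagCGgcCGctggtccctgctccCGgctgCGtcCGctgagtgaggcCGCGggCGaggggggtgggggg
Scn10a (chr9:119718983-119719282, minus strand): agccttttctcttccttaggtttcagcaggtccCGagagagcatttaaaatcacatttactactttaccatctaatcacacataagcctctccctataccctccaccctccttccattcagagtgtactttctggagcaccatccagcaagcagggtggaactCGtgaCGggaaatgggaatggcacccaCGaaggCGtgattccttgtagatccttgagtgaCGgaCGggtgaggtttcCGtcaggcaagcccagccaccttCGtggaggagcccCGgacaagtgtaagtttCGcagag
The windows hold 2, 15 and 11 CG dinucleotides in the order shown, and 7 is the median over all 32851 RefSeq windows of this length. The 8 members that fell and have a window had a median of 13 in their first window. The 4 that rose held 3 to 11, so the printed Scn10a window has the most of these 4. The printed windows do not stand for either direction. The Scn2b window is 38.3% G and C and the Cacng7 window 62.0%. A GC box, searched as GGGCGGG on both strands, stands in 25.6% of all windows and in 13 of the 39 windows (33.3%) that 29 of the genes have, among the printed ones in Cacng7. A TATAAA motif, searched on both strands, occurs in 13.6% of all windows and in 1 of the 39.

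Pore and auxiliary genes also differ in length. Annotated exon length had a median of 4656 bp for auxiliary and 10040 bp for pore genes. With the abundance trend removed, 6 of 19 auxiliary genes were lower and 0 higher, against 0 lower and 4 higher of 18 pore genes, where 18.2% of all genes were lower and 16.9% higher. With the density trend removed, 8 auxiliary genes were lower and 0 higher, against 4 lower and 2 higher pore genes, where 18.7% of all genes were lower and 15.6% higher. Medians relative to all genes were then -0.31 and 0.11 (abundance) and -0.22 and -0.07 (density) for auxiliary and pore genes, against -0.44 and -0.09 with no trend removed. The part of length and abundance in the remaining difference was not tested.

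**Figure D4:**
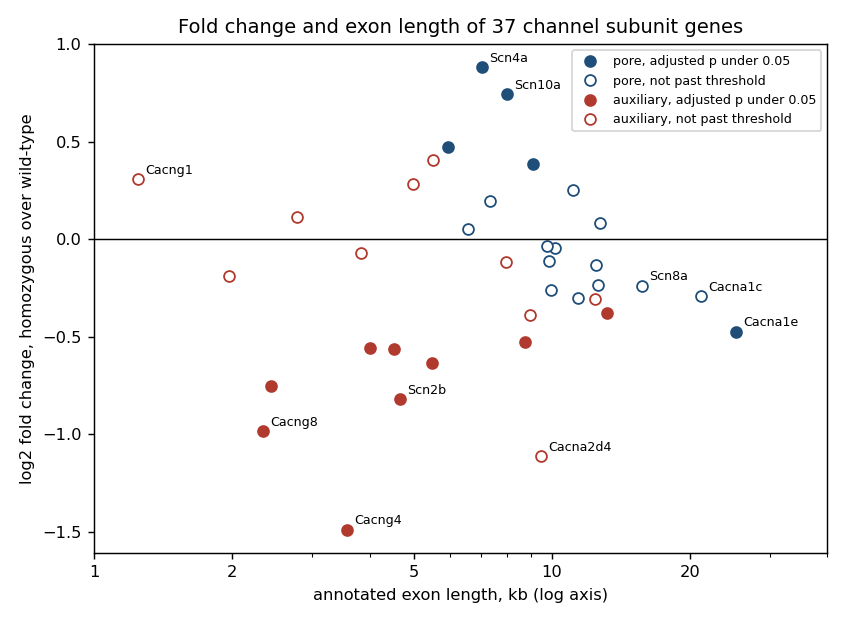
Log2 fold change of homozygous over wild-type (y axis) against annotated exon length in kilobases (x axis, log scale) for the 37 genes. Pore genes (blue) run from 5931 to 25228 bp and auxiliary genes (red) from 1249 to 13228 bp, and filled symbols passed an adjusted p of 0.05. The 9 auxiliary genes that fell include Cacng8 (2345 bp) and Cacng7 (2441 bp) as well as Cacna2d3 (8720 bp) and Cacnb2 (13228 bp).

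Summed levels per library are given as a description. The 19 auxiliary genes together reached 188, 177, 192 and 177 CPM per kilobase in homozygous replicates 15 to 18, against 275, 240.5, 287 and 258 in wild-type replicates 7 to 10. Of this, the 8 Cacng genes gave 34.4 to 50.8 in homozygous and 52.5 to 60.3 in wild-type libraries. Most of them encode TARPs, so these sums and their ratio to the pores are not of channel subunits alone. The 18 pore genes together reached 121, 124, 126 and 132 CPM per kilobase in homozygous and 129, 127, 132 and 124 in wild-type libraries. The auxiliary sums did not overlap between genotypes. Whether the pore sums overlapped depended on scale and gene set. They overlapped per kilobase, but in CPM they were 1485 to 1590 in homozygous and 1595 to 1717 in wild-type libraries, with no overlap. With Scn2a1 added they were 133 to 144 CPM per kilobase in homozygous and 146 to 157 in wild-type libraries, also with no overlap. Calcium pore genes summed alone did not overlap on either scale. Per kilobase they reached 56.2 to 61.6 CPM in homozygous and 62.5 to 69.45 CPM in wild-type libraries. Brain sodium pore genes without Scn2a1 overlapped on both scales. Per kilobase they reached 38.1 to 54.1 CPM in homozygous and 44.3 to 47.3 CPM in wild-type libraries. The ratio of auxiliary to pore sums was 1.55, 1.43, 1.53 and 1.34 in homozygous and 2.13, 1.89, 2.17 and 2.07 in wild-type libraries, again with no overlap. With Scn2a1 among the pores it was 1.23 to 1.41 in homozygous and 1.62 to 1.83 in wild-type libraries.

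**Figure D5:**
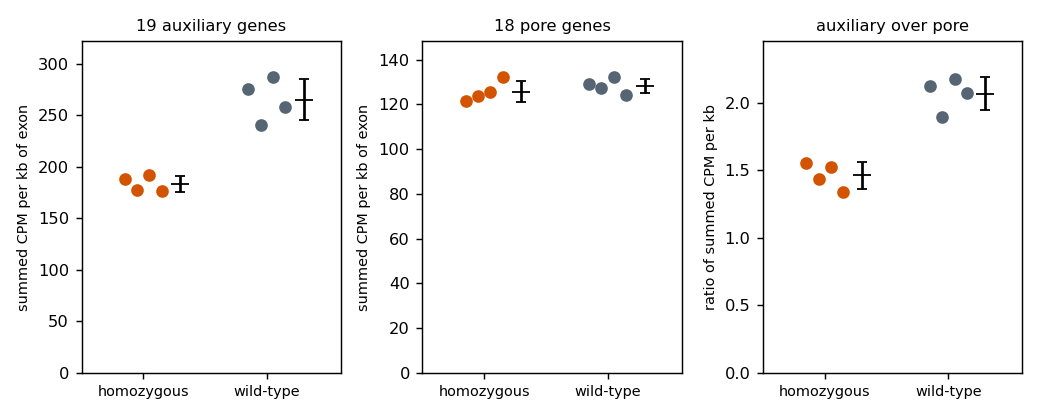
Summed CPM per kilobase of exon for the 19 auxiliary genes (left) and the 18 pore genes (middle), and the ratio of the sums (right), per library with mean and SD (n = 4 each). All y axes start at 0. Auxiliary sums are 177 to 192 in homozygous (orange) and 240.5 to 287 in wild-type (grey) libraries, and pore sums are 121 to 132 in homozygous and 124 to 132 in wild-type libraries. Scn2a1 is not in these sums, and with it the pore sums of the genotypes do not overlap.

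With no trend removed, genes that work with these channels fell more often than they rose. Of 29 tested calcium channel partners 11 fell and 4 rose (median log2 fold change -0.33), and of 19 sodium channel partners 12 fell and 0 rose (median -0.44), against 20.4% and 20.7% of all genes. Among sodium channel partners, Ank3, which encodes the ankyrin-G that anchors sodium channels at the initial segment, fell to 135 ± 8.24 CPM in homozygous libraries, against 189 ± 17.4 CPM in wild-type libraries (SD, n = 4 each; -0.49, SE 0.12, adjusted p 0.00848 in edgeR). Fgf13, an intracellular sodium channel partner, fell (-0.85, adjusted p 0.00404), as did Nedd4l, a ubiquitin ligase that removes sodium channels from the surface (-0.82, adjusted p 0.000735). Among calcium channel partners, Stac2, an adaptor of L-type channels, rose (1.08, adjusted p 0.0045), while the syntaxin gene Stx1a fell (-0.63, adjusted p 0.00218). Of 13 related cation channel genes 5 fell and 3 rose (median 0.08), and the sodium leak channel gene Nalcn with its partners Unc79 and Unc80 was among those that fell (-0.37, -0.73 and -0.50). With the abundance trend removed, the counts were 2 lower and 3 higher for calcium channel partners and 4 lower and 1 higher for sodium channel partners. Of all genes 18.2% were then lower and 16.9% higher. With the density trend removed the counts were 3 and 3, and 8 and 1, where 18.7% of all genes were lower and 15.6% higher.

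Counts of cell type markers are read against the 20.4% lower and 20.7% higher of all genes. Pan-neuronal markers fell in 7 of 9 tested and rose in 1, with a summed level of 1559 to 1843 CPM in homozygous and 2274 to 2993 CPM in wild-type libraries. Oligodendrocyte markers fell in 7 of 10 and rose in 0 (1048 to 1297 against 1531 to 2419 CPM), and astrocyte markers fell in 6 of 10 and rose in 1 (2423 to 2603 against 3445 to 4251 CPM), each with homozygous and then wild-type libraries. Microglia markers fell in 3 of 10, endothelial and mural markers in 4 of 10 with 2 higher, oligodendrocyte precursor markers in 2 of 8 with 2 higher, choroid plexus markers in 3 of 10 with 2 higher, and thalamus and striatum markers rose in 2 of 10. Several counts shrank when a trend was removed. With the abundance trend removed 4 pan-neuronal, 5 oligodendrocyte and 2 astrocyte markers were lower, and with the density trend removed 4, 3 and 1 were. Pan-neuronal markers then had 2 higher under each. Of all genes 18.2% were lower and 16.9% higher with the abundance trend removed, and 18.7% and 15.6% with the density trend removed. Of 6 hippocampal field markers 3 fell and 1 rose, and all 6 were counted in both genotypes. Neurod6 (-1.03), Fibcd1 (-0.71) and Zbtb20 (-0.50) fell, while Prox1 (-0.10) and C1ql2 (-0.30) did not pass. Neurod2 rose (1.79, adjusted p 0.0076 in edgeR), with a wide spread among homozygous libraries. It averaged 261 CPM (SD 200.6) in homozygous and 75.7 CPM (SD 5.62) in wild-type libraries. The part of these shifts in the channel values was not tested.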

How the data were processed

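Libraries were made from ribosomal-RNA-depleted total RNA of mouse hippocampus and read on the SOLiD 4 platform (50 bp forward, 35 bp reverse), according to the labels. The authors deposited raw counts per gene symbol for these 8 libraries. The submitters' processing notes name build mm10. No source read here names the aligner, the counter, the strand setting or the annotation.

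Counts were filtered with filterByExpr of edgeR 4.0.16 (R 4.3.3), which kept 20478 of 24078 entries, scaled by TMM and tested with the two-sided quasi-likelihood test, 4 homozygous against 4 wild-type, with no covariate. Benjamini-Hochberg adjustment covered all genes tested. CPM use the TMM-scaled totals. Exon lengths and positions came from GENCODE M21 (mm10), matching 97.7% of entries, and promoters from RefSeq. Trends were removed with loess offsets (span 0.3). DESeq2 1.42.0 and limma 3.58.1 were alternatives. The code was tested on simulated data.

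Of the 39 members, 2 are not reported here, and the counts, sums and figures leave them out. The other 37 and Scn2a1 were named by rule, with full values for those past the threshold. The members and gene lists were chosen with earlier results of these data known, and the low-level gene families and hippocampal markers after the data were seen. Totals of 3250949 to 6747411 counts limit precision for sparse genes. Figures were drawn with matplotlib 3.10.9.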

Additional observations from a re-analysis of the deposited data

Results flagged for a closer look

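Each value here stood apart from the other 3 libraries of its genotype, by Dixon's critical value for the gap over the range of 4 samples, a distance that chance gives in about 1 of 20 groups. Of 76 groups looked at, 7 were singled out. Cacna2d4 in wild-type replicate 8 was 204.5 CPM, the other wild-type libraries being at 42.2 to 60.9 CPM. Cacng4 in homozygous replicate 17 was 26.9 CPM, against 7.59 to 9.98 CPM in the other homozygous libraries. Scn4a in homozygous replicate 16 was 61.0 CPM, against 34.4 to 35.1 CPM. Cacnb4 stood apart in each genotype, at 215 CPM in homozygous replicate 18 (others 145 to 152 CPM) and at 201 CPM in wild-type replicate 8 (others 219 to 222 CPM). Cacna1a in homozygous replicate 16 was 88.0 CPM (others 96.0 to 97.3 CPM), and Cacng7 in homozygous replicate 15 was 3.89 CPM (others 5.23 to 5.49 CPM).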

How the results depend on the processing

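No paired analysis was possible because the genotypes share no replicate number. Of 14 members described past the threshold, 5 (Cacng4, Cacng8, Scn2b, Scn4a and Scn10a) stayed past it in the same direction under all 18 alternatives, and no called member changed sign. The looser adjusted p of 0.1 is among the 18 and could not end a call, as it reuses the main fit. With library totals, all genes gave 6645 higher and 2412 lower, members 7 higher and 3 lower, auxiliary genes 2 higher and 3 lower and pore genes 0 lower. With the abundance trend removed, members gave 6 lower, pore genes 0 lower with a median of 0.11 relative to all genes, a change of sign, and auxiliary genes a median of -0.31. With the density trend removed, members gave 2 higher, pore genes 2 higher and 4 lower, and auxiliary genes a median of -0.22. At an adjusted p of 0.1 pore genes gave 3 lower, and DESeq2, limma-voom and the inclusion of Scn2a1 each gave 2 lower. limma-voom also gave 1 auxiliary gene higher. The cause was not tested.

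Leaving out each library in turn gave 2 to 5 members higher and 5 to 10 lower, 2 to 4 pore genes higher and 0 to 1 lower, and 0 to 1 auxiliary genes higher and 5 to 10 lower. The medians relative to all genes ran from -0.12 to -0.069 for pore and from -0.54 to -0.40 for auxiliary genes. The lowest counts came without wild-type replicate 7, with 5 members lower, and without wild-type replicate 9, with 6. Calls over all genes dropped in the same settings. They were 3326 lower and 3219 higher without wild-type replicate 7, and 3311 lower and 3178 higher without wild-type replicate 9. With all libraries they were 4168 lower and 4241 higher.

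Only members that had not passed changed sign. With library totals Cacna1g was 0.15, Cacna1h 0.17, Cacna1i 0.085, Cacna2d2 0.087, Cacng5 0.13, Cacng6 0.012 and Scn3a 0.068. With the abundance trend removed Cacna1s was -0.065, Cacna1g 0.04, Cacna1h 0.15, Cacna2d1 0.092, Cacng3 -0.11, Scn3a 0.047 and Scn8a 0.23. With the density trend removed Cacna1s was -0.14, Cacng3 -0.078, Scn8a 0.032 and Scn9a -0.094. Leaving out single libraries put Cacna1s between -0.058 and 0.147, Cacng3 between -0.036 and 0.256, Cacna1g between -0.116 and 0.008, Cacng5 between -0.143 and 0.008, Scn9a between -0.06 and 0.191 and Scn1a between -0.044 and 0.385. Sparse genes such as Cacng7 rest on few counts, which limits what could be seen at this depth.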
